A study of Rattus norvegicus with 43 samples.

Results

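The genes described here were 8 hepatocyte identity transcription factors, Hnf4a, Foxa1, Foxa2, Foxa3, Cebpa, Onecut1, Prox1 and Nr5a2, out of 10643 genes tested on the same arrays. A probe set, the group of short probes that reads 1 transcript on an Affymetrix array, was taken as a member where its only listed symbol was 1 of these 8 genes, and the brightest of them stood for the gene. The members had 18 probe sets in all, 1 each for Foxa1, Foxa2 and Foxa3, 2 each for Onecut1 and Prox1, 3 each for Hnf4a and Nr5a2 and 5 for Cebpa, and all 18 passed the filter on low signals.

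The arrays compared rat primary hepatocytes (RPH) with the liver they came from, to find which transcripts change when hepatocytes leave the organ. Perfusion of 3 male Sprague Dawley rats, with no treatment named and no age stated, gave the hepatocytes, and before perfusion a lobe was tied off as the liver sample. The 5 groups were intact liver, RPH from the cell pellet at 0 h and RPH after 4, 24 and 48 h of culture, with 1 sample per rat and group and up to 3 technical arrays per sample (43 arrays, 15 samples). The cultured cells had medium with insulin, dexamethasone and serum for the first 4 h. Afterwards the medium lacked serum but kept its other constituents, so the 24 and 48 h groups differ from the 4 h group in serum as well as in time. Insulin and dexamethasone were thus in the medium at 4, 24 and 48 h. Their part in changes against liver or 0 h cannot be told apart from culture. Serum and culture time cannot be told apart here, and p-values measure the spread between these 3 rats.

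Hepatocytes keep their identity through a small network of transcription factors that bind each other's genes as well as the genes of secreted proteins and of metabolism. HNF4A, an orphan nuclear receptor, stands at its center. FOXA1, FOXA2 and FOXA3 are forkhead factors that open compacted chromatin, C/EBP alpha (Cebpa) is a leucine zipper factor that promotes energy metabolism and restrains proliferation, and HNF6 (Onecut1) is a cut-homeodomain factor needed for development of bile ducts and active in the adult liver. PROX1 is a homeodomain protein of hepatocytes and of lymphatic endothelium that acts as a corepressor of HNF4A and of LRH-1, and LRH-1 (Nr5a2) is the nuclear receptor of bile acid and cholesterol genes.

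Promoter sequences of these genes are shown because the members fell and rose at different times, and because the network is known for members that bind one another's promoters. The RefSeq table (assembly GRCr8) gave promoters for 5 of the 8 members. The 250 bases before the annotated start of both Hnf4a transcripts, of Foxa2, Foxa3 and Cebpa follow, 5′ to 3′ on the strand of the gene, with every match to a searched motif in capitals. Of the other members, RefSeq places Foxa1 on chromosome 6, Onecut1 on chromosome 8 and Prox1 and Nr5a2 on chromosome 13. The 2 Hnf4a starts lie 35.6 kb apart, and in mammals the downstream promoter of this gene is the one of adult hepatocytes. The upstream Hnf4a window is chr3:172605970-172606219 (plus strand), the downstream one chr3:172641586-172641835 (plus strand), the Foxa2 window chr3:155927509-155927758 (minus strand), the Foxa3 window chr1:87799486-87799735 (minus strand) and the Cebpa window chr1:96896334-96896583 (plus strand).
Hnf4a upstream: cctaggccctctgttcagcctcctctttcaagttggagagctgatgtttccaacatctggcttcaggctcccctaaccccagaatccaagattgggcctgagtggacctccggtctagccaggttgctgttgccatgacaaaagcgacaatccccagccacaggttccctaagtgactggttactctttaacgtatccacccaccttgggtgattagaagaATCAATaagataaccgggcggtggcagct
Hnf4a downstream: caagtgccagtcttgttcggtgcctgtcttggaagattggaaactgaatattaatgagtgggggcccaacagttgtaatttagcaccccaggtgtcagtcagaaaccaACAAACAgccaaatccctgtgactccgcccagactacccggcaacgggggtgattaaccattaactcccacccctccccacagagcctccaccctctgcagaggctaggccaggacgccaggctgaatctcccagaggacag
Foxa2: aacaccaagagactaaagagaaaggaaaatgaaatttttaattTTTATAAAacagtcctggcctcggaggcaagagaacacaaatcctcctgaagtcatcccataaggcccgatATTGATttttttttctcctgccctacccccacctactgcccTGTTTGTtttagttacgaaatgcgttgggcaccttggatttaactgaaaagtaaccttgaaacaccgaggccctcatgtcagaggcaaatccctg
Foxa3: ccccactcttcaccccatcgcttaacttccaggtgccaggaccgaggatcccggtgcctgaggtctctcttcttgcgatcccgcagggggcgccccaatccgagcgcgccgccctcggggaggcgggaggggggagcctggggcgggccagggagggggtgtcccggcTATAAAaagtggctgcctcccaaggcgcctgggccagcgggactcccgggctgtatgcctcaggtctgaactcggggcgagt
Cebpa: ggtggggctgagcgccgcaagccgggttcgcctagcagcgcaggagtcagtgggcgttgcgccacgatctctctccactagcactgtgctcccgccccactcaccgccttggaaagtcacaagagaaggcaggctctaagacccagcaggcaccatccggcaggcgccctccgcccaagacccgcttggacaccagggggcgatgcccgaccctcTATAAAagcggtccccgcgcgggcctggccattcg

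Letters of the binding motifs of the members and of a few other factors were searched on both strands, and a match describes letters, not a bound site. The downstream Hnf4a window held the FOXA letters TGTTTGT on the minus strand at 142 to 136 bases before the start, and these letters were in 5.64% of the 33469 promoter windows of the table. The upstream Hnf4a window held the HNF6 letters ATCAAT (7.1% of windows) at 29 to 24 bases. The Foxa2 window held ATCAAT on the minus strand at 136 to 131 bases, TGTTTGT at 95 to 89 bases and TATAAA, the letters of a TATA box (12.9% of windows), on both strands in an overlapping pair at 207 to 200 bases. TATAAA was also found at 35 to 30 bases in the Cebpa window and at 82 to 77 bases in the Foxa3 window. The other FOXA letters TGTTTAC (3.21%) and TGTTTGC (4.16%), the HNF4 letters CAAAGTCCA (0.338%) and CAAAGGTCA (0.376%), the C/EBP letters TTGCNNAA (9.22%), the LRH-1 letters CAAGGTCA (1.33%) and the AP-1 letters TGANTCA (6.34%) did not occur in these 5 windows, and the Nr5a2 window held none of the searched letters.

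Before the members, the samples themselves need a short account. Alb, the hepatocyte albumin gene, had a mean signal of 29640 in 48 h RPH and 36530 in liver (-0.30 on the log2 scale, SE 0.20, adjusted p = 0.233 in limma, and above 0 with other scalings). The sum of the 7 hepatocyte markers on the array was 141000 to 261700 over all 15 samples. Alb, Apoa1, Ttr, Serpina1 and Cps1 are also on the target lists counted below. The sum therefore does not measure hepatocyte content apart from those targets. The summed signal of these hepatocyte markers was 141000 to 166900 in 48 h RPH and 240500 to 261000 in liver, whereas the 6 Kupffer cell markers had a sum of 1470 to 1914 in 48 h RPH and 14210 to 19360 in liver and the 6 sinusoidal endothelial markers 529.5 to 1093 in 48 h RPH and 12620 to 15410 in liver. The liver of rat 1 stood apart from the other livers, with 7681 for the summed erythroid markers against 56980 and 58920 and with a beta-actin 3′ to 5′ ratio, a measure of RNA integrity, of 6.96 against 3.21 and 3.64. That ratio was 1.95 to 2.46 in 48 h RPH, below every liver. Because it differed between groups, a fit with this ratio as a covariate cannot separate RNA quality from group. The part of cell mixture and RNA quality in the changes below was not tested, and in whole liver fewer cells of a type and less RNA per cell cannot be told apart. All signals are MAS5 intensities scaled to the same array mean, all folds are on the log2 scale without an offset, and a gene was called where the Benjamini-Hochberg adjusted p of limma over the 10643 genes was under 0.05.

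Across the whole course the members did not move as one. At 4 h against liver 6 of 8 members were called, 5 lower and 1 higher, beside 46.2% of all genes tested, 29.8% lower and 16.4% higher (median log2 fold change of the members -0.87, of all genes -0.25), and with each array centered on its median 3 members were lower and 2 higher. At 24 h 4 members were called, all lower, beside 47.6% of all genes, 23.9% lower and 23.7% higher (medians -0.44 and 0.00), and at 48 h 6 members were called, all lower, beside 47.9%, 22.6% lower and 25.4% higher (medians -0.76 and 0.04). At 0 h 0 members were called against liver, beside 0.573% of all genes, and 1 member, Foxa3, had an unadjusted p under 0.05 in limma. The plot of signals by group shows every sample of the 8 genes.

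**Figure D1:**
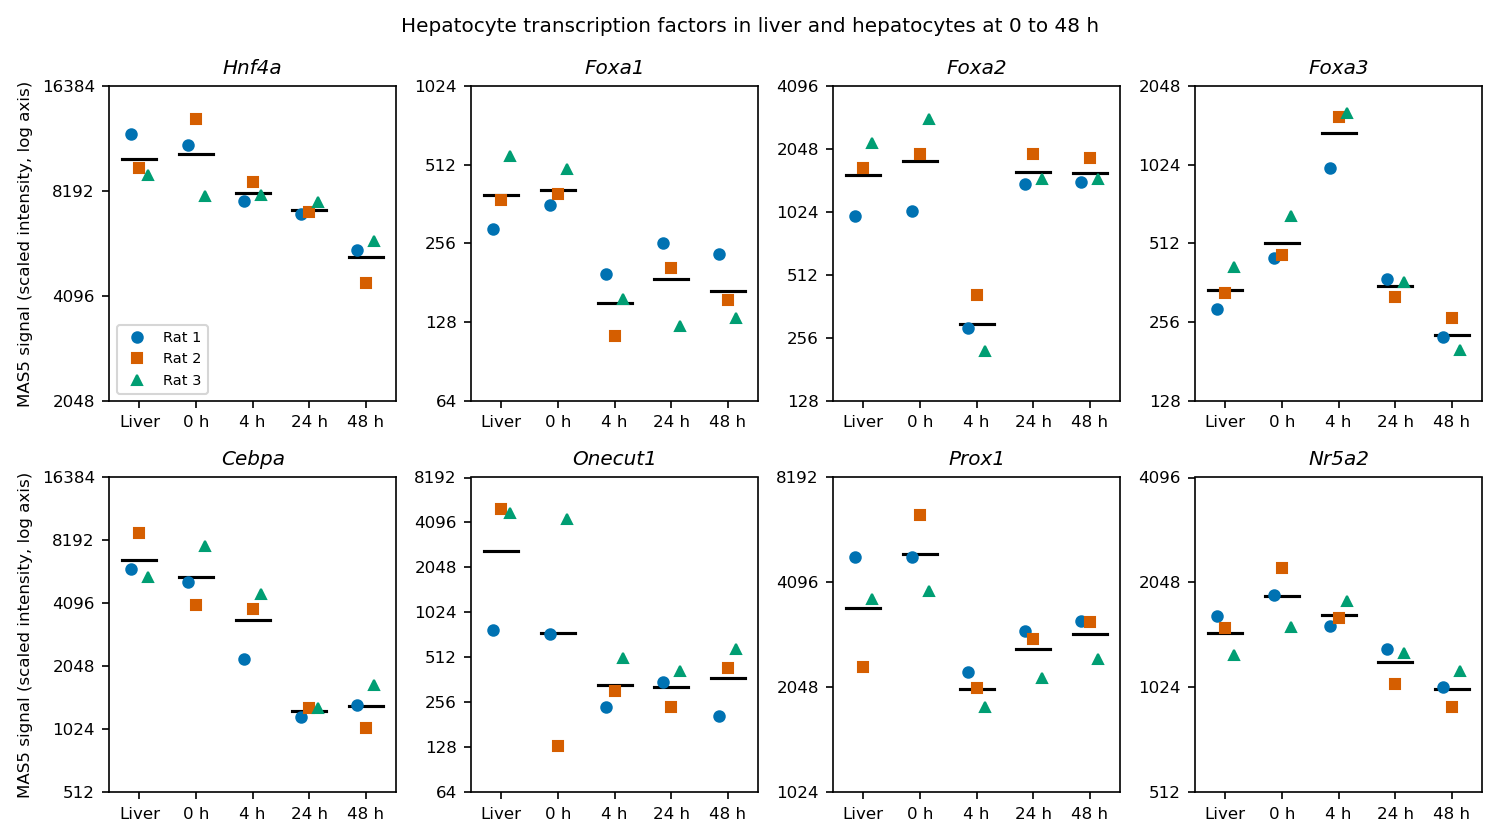
MAS5 signal (log axis) of the 8 genes in liver and in hepatocytes at 0, 4, 24 and 48 h, 1 point per rat and a line at the geometric mean of 3 rats. Foxa2 and Foxa3 move in opposite directions at 4 h and turn back at 24 h, whereas Cebpa stays between 1036 and 1664 at 24 and 48 h.

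Hnf4a decreased slowly. Its signal was 11925, 9518 and 9133 in the livers of rats 1, 2 and 3, 11100, 13141 and 7906 at 0 h, 7688, 8673 and 7963 at 4 h, 7048, 7114 and 7593 at 24 h and 5552, 4467 and 5896 at 48 h. From 4 h on each group lay below all samples of the group before it in the order of levels, and the 48 h samples were the lowest of all 15, while 0 h overlapped both liver and 4 h. The log2 fold change against liver was -0.32 at 4 h (SE 0.19, adjusted p = 0.171 in limma), -0.48 at 24 h (SE 0.19, adjusted p = 0.0473) and -0.94 at 48 h (SE 0.19, adjusted p = 0.00105), that is 1.92-fold lower at 48 h, in 3 of 3 rats. With each array centered on its median the values were 0.14 at 4 h, -0.07 at 24 h (adjusted p = 0.839) and -0.55 at 48 h (adjusted p = 0.0678), so neither call was kept. The 24 h call was lost in 15 of the 18 fits that left out a sample or a rat (log2 fold changes of -0.59 to -0.34) and with quantile normalization (-0.30, adjusted p = 0.215), while the 48 h call was kept in all 18. With the actin ratio as a covariate the values were -0.03 at 24 h and -0.44 at 48 h (adjusted p = 0.198).

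In the dimmer Hnf4a probe sets no decrease was called. At 48 h against liver the second probe set stood at -0.23 on the log2 scale (SE 0.30, adjusted p = 0.544) and the third at 0.26 (SE 0.39, adjusted p = 0.597). The sources used here do not say which Hnf4a transcript each probe set reads. Their mean log2 signals were 9.03 and 8.99 and the median SD between their technical arrays was 0.21 and 0.25, where the brightest had a mean of 12.97 and a median SD of 0.05. The 5 probe sets of Cebpa in contrast all had a called decrease at 48 h, as the plot of all probe sets shows.

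**Figure D2:**
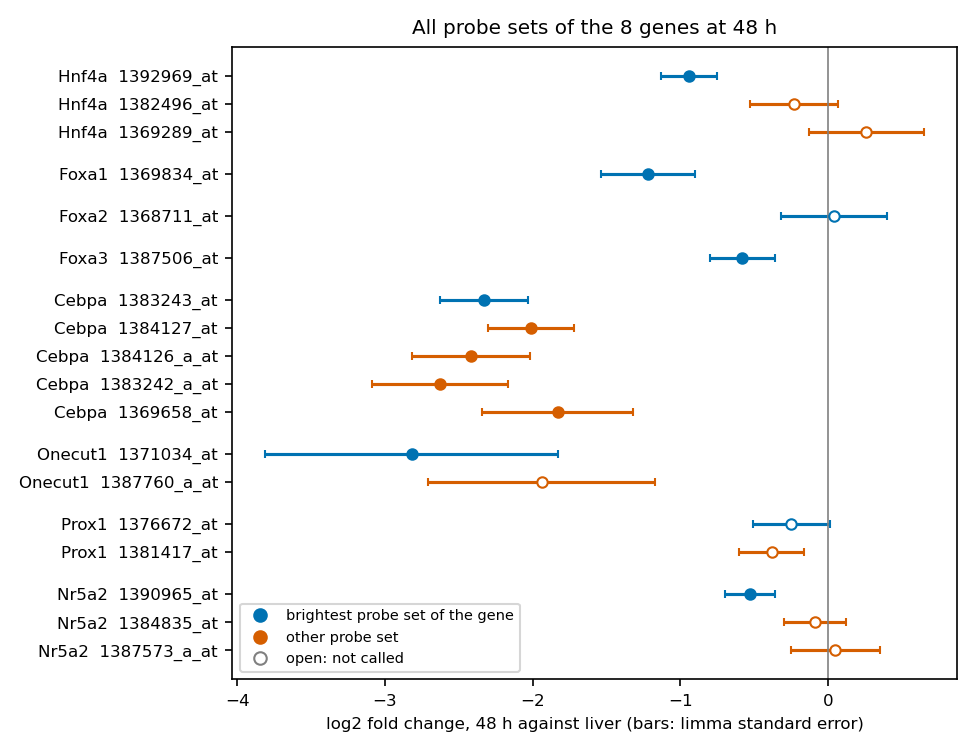
Log2 fold change at 48 h against liver (x axis, bars are limma standard errors) of each of the 18 probe sets, ordered by brightness within a gene, with open points for those not called. All 5 Cebpa probe sets lie between -2.63 and -1.83, while the 3 Hnf4a probe sets lie between -0.94 and 0.26.

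The FOXA family showed 3 different courses. Foxa2, in adult liver a factor of lipid and bile acid genes, fell at 4 h and was 5.33-fold higher again at 24 h. Its signal was 981, 1659 and 2194 in liver, 1032, 1944 and 2857 at 0 h, 287, 411 and 222 at 4 h, 1398, 1934 and 1465 at 24 h and 1417, 1858 and 1470 at 48 h. The 4 h samples lay below all others and the other 4 groups overlapped. The log2 fold change at 4 h was -2.36 against liver (SE 0.36, adjusted p = 0.000188 in limma; 5.14-fold lower) and -2.59 against 0 h (SE 0.36, adjusted p = 0.00012), and at 24 h against 4 h it was 2.41 (SE 0.36, adjusted p = 0.000197; 5.33-fold higher), each in 3 of 3 rats. Against liver it was 0.05 at 24 h (95% interval -0.73 to 0.83) and 0.04 at 48 h (-0.74 to 0.82), and the sign of these values differed between fits. Without the liver of rat 1, the lowest liver for Foxa2, they were -0.27 and -0.28, and with the actin ratio as a covariate -0.88 and -0.99, neither called.

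Foxa3, known in mouse for the glucose transporter gene of the fasted liver, rose at 4 h and fell again by 24 h. Its signal was 287, 331 and 415 in liver, 449, 463 and 653 at 0 h, 997, 1557 and 1610 at 4 h, 374, 320 and 366 at 24 h and 224, 265 and 200 at 48 h. The 4 h samples were above all others, the 0 h samples were above every liver and the 48 h samples were below every other sample. The log2 fold change at 4 h was 1.99 against liver (SE 0.22, adjusted p = 1.34e-05 in limma; 3.99-fold higher) and 1.40 against 0 h (SE 0.22, adjusted p = 0.000264), and Foxa3 was the only member called higher at 4 h, except that Nr5a2 was called too with each array centered on its median. At 24 h it was -1.95 against 4 h (SE 0.22, adjusted p = 2.1e-05) and at 48 h -0.58 against liver (SE 0.22, adjusted p = 0.0426). This last call was lost in 9 of the 18 fits without a sample or a rat (values -0.71 to -0.34), with quantile normalization (-0.57, adjusted p = 0.0506), with no filter (-0.58, adjusted p = 0.0599) and with each array centered on its median (-0.19, adjusted p = 0.596). At 0 h Foxa3 was 0.59 higher than in liver on the log2 scale in 3 of 3 rats, with an adjusted p of 0.274.

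Foxa1, which shares binding sites with Foxa2 in liver, fell at 4 h and stayed low. Its signal was 290, 374 and 555 in liver, 358, 394 and 492 at 0 h, 195, 113 and 157 at 4 h, 258, 206 and 124 at 24 h and 233, 155 and 133 at 48 h. All cultured samples were below all liver and 0 h samples, and the 3 culture times overlapped. The log2 fold change against liver was -1.37 at 4 h (SE 0.32, adjusted p = 0.00346 in limma), -1.07 at 24 h (SE 0.32, adjusted p = 0.0144) and -1.22 at 48 h (SE 0.32, adjusted p = 0.00684), that is 2.59-fold, 2.09-fold and 2.32-fold lower. These were dim signals, since the array medians were 79.7 to 145, and the 24 h call was lost without the liver of rat 3 (-0.81, adjusted p = 0.0672), without the 24 h sample of rat 3 (-0.77, adjusted p = 0.0717) and with each array centered on its median (-0.65, adjusted p = 0.0661). All 3 calls were lost without rat 2 (adjusted p = 0.0799, 0.084 and 0.0805), and the 24 and 48 h calls without rat 3 (log2 fold changes -0.52 and -0.79).

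**Figure D3:**
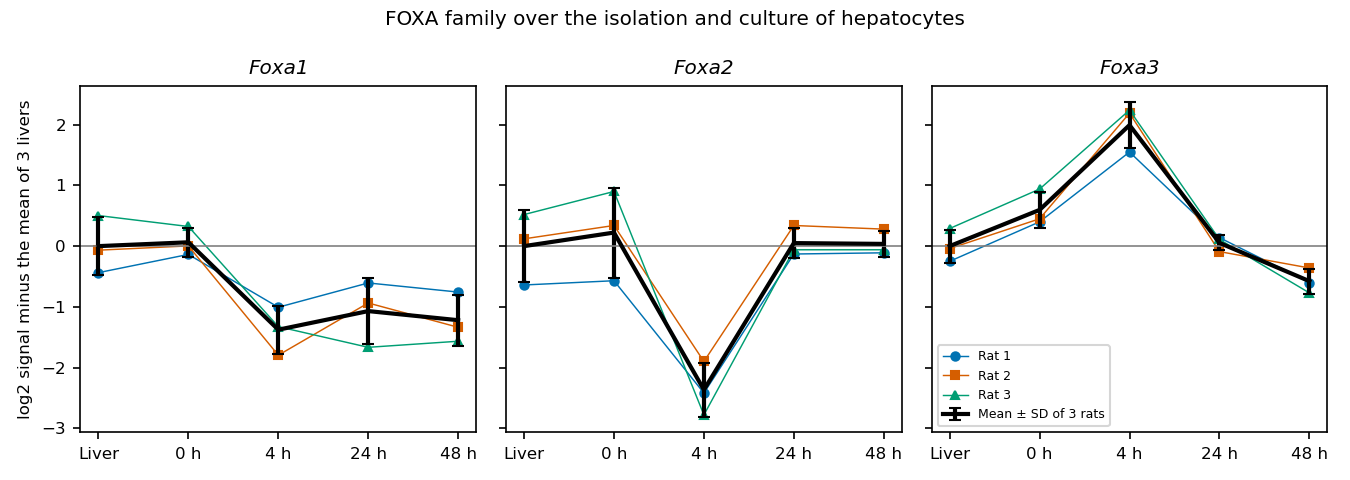
Log2 signal of Foxa1, Foxa2 and Foxa3 minus the mean of the 3 livers (y axis) in liver and at 0, 4, 24 and 48 h (x axis), as thin lines for each rat and a thick line for the mean with its SD over 3 rats. At 4 h the mean is -1.37 for Foxa1, -2.36 for Foxa2 and 1.99 for Foxa3, and at 24 h Foxa2 and Foxa3 are both at 0.05.

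Cebpa was 5.29-fold lower than in liver at 24 h and 5.02-fold lower at 48 h. Its signal was 6005, 8881 and 5495 in liver, 5212, 4036 and 7674 at 0 h, 2227, 3865 and 4532 at 4 h, 1176, 1303 and 1293 at 24 h and 1343, 1036 and 1664 at 48 h. The 24 and 48 h samples overlapped each other and lay below all other samples, and the 4 h samples lay below every liver but overlapped the 0 h samples. Against liver it stood at -0.97 on the log2 scale at 4 h (SE 0.30, adjusted p = 0.0166 in limma), -2.40 at 24 h (SE 0.30, adjusted p = 2.75e-05) and -2.33 at 48 h (SE 0.30, adjusted p = 3.09e-05), that is 1.96-fold, 5.29-fold and 5.02-fold lower in 3 of 3 rats. Between 4 and 24 h the decrease was -1.43 (SE 0.30, adjusted p = 0.00188). The 24 and 48 h calls were kept in all 18 fits without a sample or a rat, while the 4 h call was lost without the liver of rat 2 (-0.76, adjusted p = 0.0775), without the 4 h sample of rat 1 (-0.67, adjusted p = 0.0752), without rat 1, without rat 2, with each array centered on its median (-0.51, adjusted p = 0.235) and with the mean of all probe sets (-0.88, adjusted p = 0.0665).

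Onecut1 had the widest spread between rats, and most of it was in liver and at 0 h. Its signal was 782, 5013 and 4755 in the livers of rats 1, 2 and 3 and 739, 131 and 4347 at 0 h, against 239, 307 and 510 at 4 h, 350, 238 and 418 at 24 h and 209, 433 and 579 at 48 h. The highest over the lowest rat was 6.41-fold in liver and 33.1-fold at 0 h, but 1.75-fold to 2.77-fold in culture, and the median SD between technical arrays was 0.10 on the log2 scale. All cultured samples lay below all livers, and the 0 h samples overlapped every other group. Rat 2 had the highest Onecut1 signal of all 15 samples in liver and the lowest at 0 h. In the brightest probe sets this 0 h sample also had the lowest Cebpa and the highest Prox1, Hnf4a and Nr5a2 of the 3 rats at 0 h. Dimmer probe sets differed, with rat 2 the lowest at 0 h for Hnf4a (389 against 610 and 970, and 360 against 436 and 1049). It was also the lowest in the second Prox1 probe set (73 against 90 and 92). In the dimmest Nr5a2 probe set rat 2 had 277 and rat 3 had 318. The rat number of the livers of rats 1 and 2 is in doubt. Over all genes, deviations of the rat 1 liver had a median r of 0.20 with RPH of rat 2. With RPH of rat 1 it was 0.00. These r values are weak, and deviations from a mean of 3 rats are tied to each other. This liver also stood apart in RNA quality. Among the members Foxa1, Foxa2 and Foxa3 had the same order of rats in liver and at 0 h in the brightest probe sets, and the others did not. With the liver labels of rats 1 and 2 exchanged, Hnf4a and Nr5a2 would have the same order and the FOXA genes would not. Cebpa, Onecut1 and Prox1 would have it under neither labeling. Whether the liver labels of rats 1 and 2 were exchanged could not be settled, so the comparison of rat 2 between liver and 0 h depends on labels in doubt.

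The log2 fold change of Onecut1 against liver was -2.99 at 4 h (SE 0.99, adjusted p = 0.0254 in limma), -3.02 at 24 h (SE 0.99, adjusted p = 0.0234) and -2.82 at 48 h (SE 0.99, adjusted p = 0.0316), that is 7.93-fold, 8.12-fold and 7.08-fold lower. These 3 calls were lost in 7, 5 and 7 of the 18 fits without a sample or a rat. Each was lost without the liver of rat 2 (adjusted p = 0.0948, 0.0903 and 0.113) and without the liver of rat 3 (adjusted p = 0.088, 0.0809 and 0.104), and without the liver of rat 1, the low one, the value at 48 h was -3.71. The second probe set followed the same rats, with 211, 1081 and 895 in liver and 281, 90 and 1266 at 0 h, and stood at -1.94 on the log2 scale at 48 h (SE 0.77, adjusted p = 0.053). HNF6 is also present in bile duct cells, and of the 6 cholangiocyte markers on the array 3 were lower at 48 h than in liver. Their summed signal was 2305 to 3239 in 48 h RPH and 1152 to 1201 in liver, of which Epcam alone had a mean of 2409 in 48 h RPH and 790.5 in liver, while Krt19 had 26.8 in 48 h RPH and 153.1 in liver. Their part in the Onecut1 signal was not tested.

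Prox1 was on average highest in fresh hepatocytes and lowest at 4 h. Its signal was 4860, 2342 and 3664 in liver, 4855, 6410 and 3877 at 0 h, 2263, 2046 and 1804 at 4 h, 2970, 2816 and 2183 at 24 h and 3177, 3156 and 2464 at 48 h. All cultured samples lay below all 0 h samples, every 4 h sample lay below every liver, and the livers overlapped the 0, 24 and 48 h groups. Against liver the log2 fold change was -0.77 at 4 h (SE 0.26, adjusted p = 0.0242 in limma), -0.40 at 24 h (95% interval -0.95 to 0.15) and -0.25 at 48 h (-0.80 to 0.30), and the 4 h call was lost without the liver of rat 1 (-0.53, adjusted p = 0.11), the liver of rat 3, the 4 h sample of rat 2 or of rat 3, rat 1 or rat 3, in a fit of only these groups (-0.77, adjusted p = 0.0573), with each array centered on its median (-0.31, adjusted p = 0.433) and with the actin ratio as a covariate (-0.39, adjusted p = 0.246). Without the liver of rat 2, the lowest liver, Prox1 was also called at 24 h (-0.68, adjusted p = 0.0374). The second probe set, dim with a mean log2 signal of 6.16, was above the array median in only 5 of the 43 arrays. It stood at -0.71 at 4 h against liver (SE 0.22, adjusted p = 0.0183), a fold of uncertain size. It was not called at 24 or 48 h against liver. Lymphatic endothelium also makes PROX1. The 4 lymphatic endothelial markers summed to 1355 to 2418 at 4 h, 228 to 469.8 at 48 h and 3292 to 4953 in liver. Lyve1 is also among the sinusoidal endothelial markers, so this sum does not read lymphatic endothelium alone. The part of lymphatic endothelium in the Prox1 signal was not tested.

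Nr5a2 had the smallest range of group means, 1.83-fold between 0 and 48 h. Its signal was 1642, 1513 and 1271 in liver, 1883, 2250 and 1529 at 0 h, 1540, 1619 and 1809 at 4 h, 1319, 1047 and 1282 at 24 h and 1024, 900 and 1140 at 48 h. The 48 h samples lay below every liver, every 0 h and every 4 h sample, and all other neighbors in the order of levels overlapped, 24 and 48 h included. Against liver the log2 fold change was 0.17 at 4 h (95% interval -0.20 to 0.54), -0.28 at 24 h (-0.65 to 0.09) and -0.53 at 48 h (SE 0.17, adjusted p = 0.0222 in limma; 1.44-fold lower in 3 of 3 rats). The 48 h call was lost without the liver of rat 1 (-0.45, adjusted p = 0.0788) or rat 2 (-0.51, adjusted p = 0.0615), without the 48 h sample of rat 2 (-0.44, adjusted p = 0.0881), without rat 1 or rat 2, with the actin ratio as a covariate (-0.20, adjusted p = 0.587) and with each array centered on its median (-0.14, adjusted p = 0.628), a scaling under which the 4 h value was 0.63 and was called (adjusted p = 0.0364). On the log2 scale the 2 dimmer Nr5a2 probe sets stood at -0.09 (adjusted p = 0.733) and 0.05 (adjusted p = 0.91) at 48 h.

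**Figure D4:**
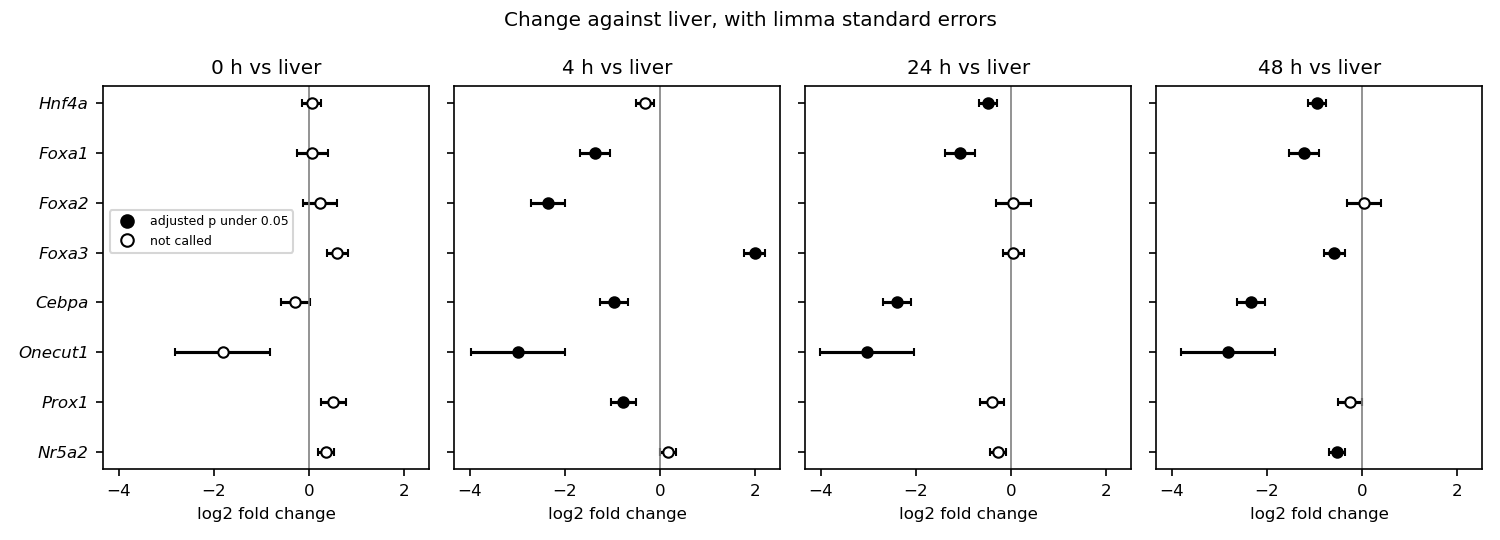
Log2 fold change against liver (x axis, bars are limma standard errors) of the 8 genes at 0, 4, 24 and 48 h, with filled points for an adjusted p under 0.05. Called members number 0, 6, 4 and 6 in the 4 comparisons, and Foxa3 at 4 h (1.99) is the only called point above 0.

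The cultured cells were also set against fresh hepatocytes. In their brightest probe sets Prox1 was called at all 3 times and Nr5a2 at 24 and 48 h. These comparisons share the cultured samples with those against liver, so they are given side by side and not as separate support. At 4 h against 0 h 4 members were called (1 higher, 3 lower), beside 38.9% of all genes: Foxa3 and Foxa2 as given above, Foxa1 at -1.44 (SE 0.32, adjusted p = 0.0031) and Prox1 at -1.28 (SE 0.26, adjusted p = 0.00156), that is 2.44-fold lower. The Foxa1 call was lost without rat 2 (-1.26, adjusted p = 0.0765). Cebpa was at -0.68 in 3 of 3 rats with an adjusted p of 0.0846.

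At 24 h against 0 h 5 members were called, all lower, beside 41.5% of all genes, and with the rat as a replicate block Foxa3 (log2 fold change -0.54) became the sixth, with an adjusted p of 0.037 against 0.0608 without the block. The called values were -2.12 for Cebpa (adjusted p = 8.75e-05), -1.14 for Foxa1 (adjusted p = 0.0115), -0.91 for Prox1 (adjusted p = 0.0116), -0.62 for Nr5a2 (adjusted p = 0.0107) and -0.53 for Hnf4a (adjusted p = 0.0346). Cebpa kept its call in all 18 fits without a sample or a rat, and the other 4 lost it in at least 3 of them, so that without rat 2 only 1 member was called. With the actin ratio as a covariate Hnf4a (-0.16, adjusted p = 0.59), Prox1 (-0.40, adjusted p = 0.32) and Nr5a2 (-0.38, adjusted p = 0.21) were not called. Foxa3 was called in that fit (-0.87, adjusted p = 0.0308). In the second-brightest probe sets Hnf4a (-0.35, adjusted p = 0.37), Prox1 (-0.30, adjusted p = 0.296) and Nr5a2 (-0.24, adjusted p = 0.396) were not called. Hnf4a and Nr5a2 also lost their calls with each array centered on its median (adjusted p = 0.125 and 0.053). The same held with the mean of all probe sets (adjusted p = 0.297 and 0.154).

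At 48 h against 0 h 6 members were called, all lower, beside 44.1% of all genes. The values were -2.04 for Cebpa (adjusted p = 9.93e-05), -1.28 for Foxa1 (adjusted p = 0.00521), -1.17 for Foxa3 (adjusted p = 0.000714), -0.99 for Hnf4a (adjusted p = 0.00075), -0.88 for Nr5a2 (adjusted p = 0.0011) and -0.76 for Prox1 (adjusted p = 0.0266). Only Foxa2 and Onecut1 were not called. The calls of Cebpa, Foxa3, Hnf4a and Nr5a2 were kept in all 18 fits without a sample or a rat. That of Foxa1 was lost without rat 2 (-1.26, adjusted p = 0.0718). The Prox1 call was lost in 6 of the 18 fits, among them without the 0 h sample of rat 2 (-0.57, adjusted p = 0.113). In the second-brightest probe sets Hnf4a (-0.24, adjusted p = 0.545), Nr5a2 (-0.52, adjusted p = 0.0583) and Prox1 (-0.33, adjusted p = 0.249) were not called. The mean of all probe sets put Hnf4a at -0.41 (adjusted p = 0.138). With the actin ratio as a covariate Hnf4a (-0.58, adjusted p = 0.0684), Nr5a2 (-0.60, adjusted p = 0.0696) and Prox1 (-0.19, adjusted p = 0.678) were not called.

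Successive culture times were compared as well. At 24 h against 4 h 3 members were called, Foxa2 higher and Foxa3 and Cebpa lower, beside 39.9% of all genes, and Nr5a2 stood at -0.45 in 3 of 3 rats (adjusted p = 0.0531). At 48 h against 24 h 0 members were called in limma, beside 4.28% of all genes, and 2 members had an unadjusted p under 0.05, Hnf4a (log2 fold change -0.46, adjusted p = 0.237) and Foxa3 (-0.63, adjusted p = 0.149), both lower in 3 of 3 rats. With all 43 arrays in the fit and the technical arrays as a random block Hnf4a was called in this step (-0.45, adjusted p = 0.0142).

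Genes that these factors are known to drive in liver were counted from lists taken from general knowledge, at 48 h against liver. The lists were chosen with earlier results of these data known, so the counts are a description only. They stand beside 22.6% of all genes called lower and 25.4% called higher (47.9% together). Of 18 HNF4A targets tested, 13 were lower and 0 higher (median log2 fold change -0.72, all genes 0.04). Pck1, the key enzyme of gluconeogenesis, was lowest at -5.92 (SE 0.30, adjusted p = 1.26e-08 in limma), with 665, 465 and 542 in 48 h RPH of rats 1, 2 and 3 against 36421, 35916 and 28362 in liver. Cyp8b1, the bile acid 12-alpha-hydroxylase, was at -5.01 with 199, 241 and 232 in 48 h RPH against 4981, 8485 and 8775 in liver, Cyp7a1, the rate-limiting enzyme of bile acid synthesis, at -3.59 and Otc, an enzyme of the urea cycle, at -2.61. The same list had 3 of 18 genes lower at 4 h and 10 of 18 at 24 h, with 0 higher at either time, beside 29.8% and 23.9% of all genes lower. With each array centered on its median 7 HNF4A targets were lower and 1 higher at 48 h, 4 lower and 1 higher at 24 h and 3 lower and 1 higher at 4 h, and with quantile normalization 8 were lower and 1 higher at 48 h. With the rat as a replicate block 5 were lower and 1 higher at 4 h, with the actin ratio as a covariate 5 were lower at 24 h and 7 at 48 h, and without rat 2 6 were lower at 24 h.

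Of 14 C/EBP alpha targets 9 were lower and 0 higher (median -0.54), with Adh1c, an alcohol dehydrogenase, at -1.96 and F9, coagulation factor IX, at -1.44 after Pck1 and Otc, which are also on this list. Of 10 FOXA targets 5 were lower and 0 higher (median -0.54), a called share near the 47.9% of all genes, and among them were Apob, the protein of very low density lipoprotein, at -1.22, Cps1, the first enzyme of the urea cycle, at -0.90 and Serpina1, alpha-1-antitrypsin, at -0.60. Pck1 is on the FOXA list too. With each array centered on its median 5 C/EBP alpha targets were lower and 1 higher and 3 FOXA targets lower and 1 higher, and with quantile normalization 5 C/EBP alpha targets were lower and 2 higher and 3 FOXA targets were called. With the actin ratio as a covariate 5 C/EBP alpha targets and 3 FOXA targets were called. These lists share genes and are not independent of each other.

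Of 10 LRH-1 targets 6 were lower and 1 higher (median -2.89), Cyp8b1 and Cyp7a1 among the lower ones. Nr0b2, the repressor SHP of bile acid synthesis, stood at -5.80 (SE 0.55, adjusted p = 2.63e-06), with 56, 36 and 26 in 48 h RPH against 4838, 1362 and 1354 in liver. The sterol half-transporters Abcg5 and Abcg8 stood at -4.78 and -3.98. The mean 48 h signals of Nr0b2 (37.4), Abcg5 (28.0) and Abcg8 (23.0) were below the median of every array, so the size of these folds is uncertain. The gene that rose was Abcc3, a basolateral efflux transporter, named after its values were seen.

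**Figure D5:**
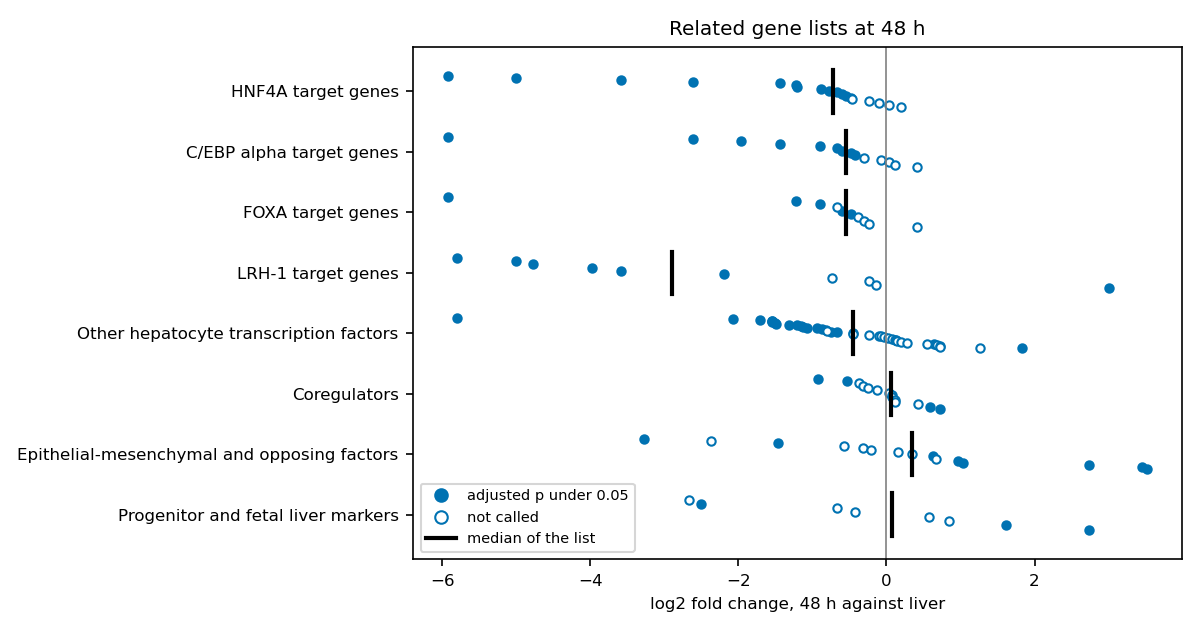
Log2 fold change at 48 h against liver (x axis) of each tested gene in 8 related lists, filled where the adjusted p was under 0.05, with a black line at the median of the list. The LRH-1 target list has the lowest median (-2.89) and the list of epithelial-mesenchymal and opposing factors the highest (0.34).

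The other hepatocyte transcription factors tested numbered 39, of which 18 were lower and 2 higher at 48 h (median -0.45), with Nr0b2 lowest. The 20 called were a share near the 47.9% of all genes, and with each array centered on its median 11 were lower and 7 higher. Nr1h4, the bile acid receptor FXR, was at -2.07 (SE 0.28, adjusted p = 6.01e-05 in limma) with 1235, 1029 and 1169 in 48 h RPH against 4400, 4057 and 6132 in liver, and Nr3c1, the glucocorticoid receptor, at -1.71. Cebpd, a C/EBP factor of the acute phase response, rose by 1.83 (SE 0.30, adjusted p = 0.000263), with 1037, 1020 and 1226 in 48 h RPH against 295, 396 and 246 in liver. Of 14 coregulators 2 were higher and 2 lower (median 0.06). Higher were Cited2, a binding partner of p300, at 0.73 and Hdac3, a corepressor deacetylase, at 0.59. Cited2 was higher in only 2 of 3 rats by the labels as given, and its 48 h samples overlapped the livers. That count depends on the liver labels of rats 1 and 2, which are in doubt. Lower were Ppargc1b, a coactivator of mitochondrial genes, at -0.93 and Ep300, the acetyltransferase p300, at -0.53. Without rat 1, rat 2 or rat 3, or with the actin ratio as a covariate, 2 coregulators were called, and with each array centered on its median 3 were higher and 1 lower.

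Among 15 genes of mesenchymal change or known to oppose the epithelial or hepatocyte state, 6 were higher and 2 lower at 48 h (median 0.34), a called share near the 47.9% of all genes. Klf6, an injury-induced zinc finger factor, rose by 3.52 (SE 0.33, adjusted p = 2.22e-06 in limma), with 3986, 3980 and 4138 in 48 h RPH against 693, 335 and 189 in liver. At 0 h Klf6 already stood at 1.61 against liver (SE 0.33, adjusted p = 0.0499 in limma, 0.0545 with the rat as a replicate block). At 48 h Vim, vimentin of mesenchymal cells, rose by 3.45 and Sox4, a developmental factor, by 2.74. Zeb2, a repressor of E-cadherin that non-parenchymal cells express, stood at -3.27 with a mean 48 h signal of 49.5. Vim is made by stellate cells, and the summed signal of the 8 stellate and fibroblast markers was 1101 to 2271 in 48 h RPH and 6662 to 13630 in liver. The part of stellate cells in the Vim signal was not tested. Of 8 progenitor and fetal liver markers 2 were higher, Sox4 and Epcam (1.61), and 1 lower, Krt19 (-2.51), with a median of 0.07. The mean 48 h signals of Krt19 (26.8) and Zeb2 were below the median of every array, so the size of these folds is uncertain. With the rat as a replicate block 6 of these 8 markers were called, with technical arrays as a random block 5, and with each array centered on its median 4 were higher and 1 lower.

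For each member the 2 genes with the most similar log2 signal over the 15 samples were looked up as a description. They were picked for this likeness, so a shared peak or a shared order of rats follows largely from the choice. Over these samples, which share rats and groups, Foxa3 was closest to Gclc (Pearson r = 0.958), the catalytic subunit of glutathione synthesis, and Tiparp (r = 0.948), a target of the aryl hydrocarbon receptor. Gclc had 8191, 9802 and 11338 at 4 h and 2683, 2304 and 2593 in liver, so it peaked at the same time as Foxa3. Foxa2 was closest to Srbd1 (r = 0.958) and Trappc12 (r = 0.949), both lowest at 4 h, and Foxa1 to the homeobox gene Irx1 (r = 0.943), with 92, 51 and 60 at 4 h against 463, 359 and 546 in liver, and to Igtp (r = 0.925). Cebpa was closest to Aldh1l1, an enzyme of folate metabolism (r = 0.966), and Pink1, a mitochondrial kinase (r = 0.963).

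Hnf4a was closest to Srprb (r = 0.932), a subunit of the signal recognition particle receptor, and Ulk2 (r = 0.928), and Prox1 to Brd10 (r = 0.915) and Dao (r = 0.913), D-amino acid oxidase. Dao had 3446, 1624 and 1942 in the livers of rats 1, 2 and 3, the same order of rats as for Prox1 in liver. Nr5a2 was closest to C13h1orf115 (r = 0.910) and to the immediate early gene Egr1 (r = 0.908), which had 12338, 16481 and 15075 at 0 h and 6754, 3056 and 2130 in liver. Onecut1 was closest to LOC102549203 (r = 0.912) and Adprh (r = 0.898). LOC102549203 had 227, 612 and 643 in the livers and 180, 90 and 502 at 0 h, the same rats high and low as for Onecut1.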

How the data were processed

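RNA from 3 rats was hybridized to Affymetrix RG230-2 arrays, 1 sample per rat and group with 3 technical arrays each, and 1 array at 4 h and 1 at 48 h had been excluded by the authors on quality, which left 43. The deposited values are MAS5 signal intensities on a linear scale, which the authors scaled to a trimmed array mean of 500; the sources used here name both the scanner software and the affy package (no version) and do not say which made them. Scaling sets the mean of each array and not its median, so a shift of the bulk of genes moves every fold.

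The log2 of each signal was used with no offset and technical arrays were averaged, giving 15 samples. Probe sets above the array median in at least 5 arrays were kept, control probe sets and probe sets with several symbols were left out, and the brightest probe set stood for each of 10643 genes. Groups were compared in 1 fit of limma 3.58.1 (lmFit, then eBayes, whose prior had 3.28 degrees of freedom) in R 4.3.3 without a rat term, with Benjamini-Hochberg adjustment within each of 9 comparisons. Intervals (95%) come from the same fit. The 3 rats per group limit the precision, and the test was checked on simulated data.

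Samples are paired, since the labels name the rat. Residuals from the group means had a median r of 0.34 within a rat (30 pairs) and -0.18 between rats (60 pairs), while for the livers of rat 1 and rat 2 the median r with RPH of the same rat was 0.00 and -0.06. The liver of rat 1 had a median r of 0.20 with RPH of rat 2, and the liver of rat 2 one of 0.09 with RPH of rat 1, so the liver labels of these rats may be exchanged, which could not be settled. A fit with the rat as a replicate block was an alternative and takes the labels as given, while the fit without a rat term does not use them.

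The members and lists were chosen with earlier results of these data known. Named genes beyond the members were up to 4 per list called at 48 h with the largest change, the 2 genes most correlated with each member, and Alb. Alternatives changed the scaling, the filter, the choice of probe set, the treatment of technical arrays, the covariates, the threshold and the samples left out. Listed genes without a match in the probe annotation were not analysed here. Promoter windows came from a RefSeq table of assembly GRCr8, and array probe sets were matched to them by symbol.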

Additional observations from a re-analysis of the deposited data

How the results depend on the processing

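Members called ranged over the fits that left out 1 sample or 1 rat from 3 to 6 at 4 h against liver (3 without rat 1 or without rat 2), 1 to 4 at 24 h (1 without rat 2, without rat 3 or without the liver of rat 3), 2 to 6 at 48 h (2 without rat 2; 3 without rat 1, without rat 3 or without the liver of rat 2), 3 to 6 at 4 h against 0 h, 1 to 6 at 24 h against 0 h (1 without rat 2; 2 without the 24 h sample of rat 3; 3 without rat 1, without rat 3 or without the 0 h sample of rat 2), 4 to 6 at 48 h against 0 h and 3 to 4 at 24 h against 4 h, and were 0 at 0 h against liver and at 48 h against 24 h. With the rat as a replicate block 6 members were called at 24 h against 0 h instead of 5 (Foxa3 added, adjusted p = 0.037), and no other call of a member changed.

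With each array centered on its median, which put the median log2 fold change of all genes at 0.42 at 24 h against liver (0.00 otherwise) and at 0.43 at 48 h (0.04 otherwise), 2 members were called at 24 h, 3 at 48 h and 3 at 24 h against 0 h, and the sign turned for Hnf4a at 4 h (0.14), Prox1 at 24 h (0.02) and 48 h (0.14), Nr5a2 at 24 h (0.14) and Alb at 48 h (0.09). Quantile normalization turned Foxa2 at 24 h (-0.08) and 48 h (-0.10) and Alb at 48 h (0.22). With the actin ratio as a covariate Foxa2 stood at -0.88 at 24 h and -0.99 at 48 h, Foxa3 at -0.35 at 24 h, Prox1 at 0.23 and 0.44 and Nr5a2 at 0.02 at 24 h. The mean of all probe sets gave 3 members at 24 h against 0 h and 0.11 for Nr5a2 at 24 h against liver, and the second-brightest probe sets 3 members at 48 h against liver, 2 at 24 h against 0 h, 3 at 48 h against 0 h, 0.19 for Nr5a2 at 24 h against liver and 0.11 for Hnf4a at 48 h against 24 h. A fit of only the 2 groups gave 3 members at 24 h against 0 h, all arrays with technical arrays as a random block gave 1 at 48 h against 24 h, and an adjusted p under 0.01 gave 3, 1 and 3 at 4, 24 and 48 h against liver and 1 at 24 h against 0 h. Leaving out samples turned the sign of values near 0: Foxa2 ranged from -0.27 to 0.37 at 24 h and from -0.28 to 0.35 at 48 h against liver, and Foxa3 from -0.12 to 0.19 at 24 h. The causes were not tested. Calls of Foxa2 and Foxa3 at 4 h against liver and of Cebpa at 24 and 48 h kept their direction and their side of the threshold in every alternative that could be run on them.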
